A study of Monodelphis domestica with 6 samples.

Results

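The genes described here run the mechanics of cell division in opossum cells, namely the spindle assembly checkpoint, the mitotic kinases and cyclins, the kinetochore, the spindle motors, cytokinesis and chromosome condensation. They are a list of 43 gene symbols looked up in the deposited tables of raw counts and log2 values, of which 42 had a row among the 35665 genes of the files. ESPL1, which encodes separase, the protease that cuts cohesin at anaphase, was looked up under that symbol and is not analysed here.

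Cells enter mitosis when cyclin B and CDK1 are activated together, with help from PLK1 and the Aurora kinases. The chromosomes are then condensed, microtubules of the spindle attach to kinetochores built on CENPA chromatin, and the checkpoint holds back anaphase until every kinetochore is attached. Transcripts of most of these genes are most abundant in the G2 phase and mitosis, and they are commonly used as marks of dividing cells.

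The study compared neonatal skin fibroblasts (neoSFs) of a marsupial, the opossum Monodelphis domestica, with the induced pluripotent stem cells (monoiPSCs) made from them. All cells were wild type and came from the inbred strains FD2M1 and LSD1 (here the name of a strain, not of the demethylase). The neoSFs were untreated primary cultures of female pups grown in medium with serum, 1 library per strain, and the monoiPSCs were feeder-free lines made with episomal plasmids for human KLF4, SOX2, OCT4, cMYC, LIN28 and NANOG, with p53DD and EBNA1 plasmids also used, and kept in medium with LIF, bFGF and the ROCK inhibitor Y27632. There were 4 monoiPSC libraries, the FD2M1 and the LSD1 line each at passage 15 and passage 25, so that passages of 1 line are not separate lines, and p-values measure the spread among these libraries only.

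The neoSF libraries held 14278794 and 16982978 counts and the monoiPSC libraries 28684754 to 35564261. The neoSF libraries were read in-house with shorter single-end reads and the monoiPSC libraries by a service with longer paired-end reads, so that platform and cell type cannot be told apart in any comparison between them. Of the fibroblast markers with a row, 9 of 9 were lower in monoiPSCs, and 7 of 7 pluripotent cell markers were higher. Markers of other cells were also present in monoiPSCs. The summed normalized read count of 4 skeletal muscle markers was 436 and 1801 in neoSFs and 2089 to 19998 in monoiPSCs. The highest value was in the LSD1 line at passage 25. MYOG and ACTA1 were higher in every monoiPSC library, while MYOD1 and DES overlapped between the cell types. The sum of 4 melanocyte markers was 253 and 402 against 4601 to 15555, mostly DCT. MITF and TYR overlapped, and MLANA was lower, with a mean of 7.65 in monoiPSCs against 20.1 in neoSFs. The sum of 4 neuronal markers was 515 and 938 against 2920 to 7562. TUBB3, ELAVL3 and STMN2 were higher in every monoiPSC library, while SYT1 overlapped, with a mean of 319 against 503 in neoSFs. The keratinocyte markers with a row, KRT14 and TP63, were at 0 in all 4 monoiPSC libraries and at most 6.83 in neoSFs, and the summed level was 25.2 to 41.8 for 3 blood cell markers and 51.5 to 217 for 4 endothelial cell markers over all 6 libraries. The part of these cells in the results below was not tested. Leaving out a single library cannot test it, since MYOG, DCT and ELAVL3 were higher in every monoiPSC library.

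The mitotic genes rose together in monoiPSCs. A gene was called a DE gene where edgeR's quasi-likelihood test gave a p of 0.05 or less after Benjamini-Hochberg adjustment and the change was 2-fold or more, and 41 of the 42 genes were DE genes that were higher in monoiPSCs, against 24.3% of all 13072 genes tested. None was lower, against 21.6% of all genes. The median log2 fold change was 3.62, or 12.3-fold, against 0.08 over all genes tested. Over all genes, 3176 were higher and 2824 lower, and 4786 and 1931 with total count scaling, which moved the median of all genes to 0.61 and that of the 42 genes to 4.14. The adjusted p ranged from 9.82e-06 for CENPE to 0.0375 for BUB3, the gene that did not reach a 2-fold change. In each of the 42 genes, all 4 monoiPSC libraries lay above both neoSF libraries, a pattern seen in 36.1% of the genes tested.

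Changes over 8-fold were seen in 32 of the genes, against 9.21% of all genes tested, and over 16-fold in 14. Changes between 4-fold and 8-fold were seen in 7 genes, and only BUB3, CENPA and CENPK changed by less than 4-fold. The SD of the log2 fold change over the 42 genes was 0.93, against 2.62 over all genes tested, which include genes that fell. In terms of rank, BUB3 stood at the 63.7th percentile of all log2 fold changes and TOP2A, the highest, at the 95.9th. Against the neoSFs of their own strain, 41 genes were over 2-fold higher in each of the 4 monoiPSC libraries. For this count and that over 16-fold, the share of all genes tested was not computed, so how common they are is not known.

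As a share of all counts, the 42 genes took 0.0423% (95% exact binomial interval 0.0412 to 0.0433) in the FD2M1 neoSFs and 0.0376% (0.0366 to 0.0385) in the LSD1 neoSFs. In the monoiPSCs the share was 0.633% (0.630 to 0.636) in the FD2M1 line and 0.528% (0.526 to 0.531) in the LSD1 line at passage 15, and 0.719% (0.716 to 0.722) and 0.612% (0.610 to 0.615) at passage 25. The lowest monoiPSC share was thus above the highest neoSF share by far more than the counting error, which is all that these intervals cover. Since RNA of whole cultures was sequenced, more dividing cells and more RNA per dividing cell cannot be told apart. All 42 genes passed the filter on low values, 41 of them in both cell types and CDC25C through the monoiPSCs alone.

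**Figure D1:**
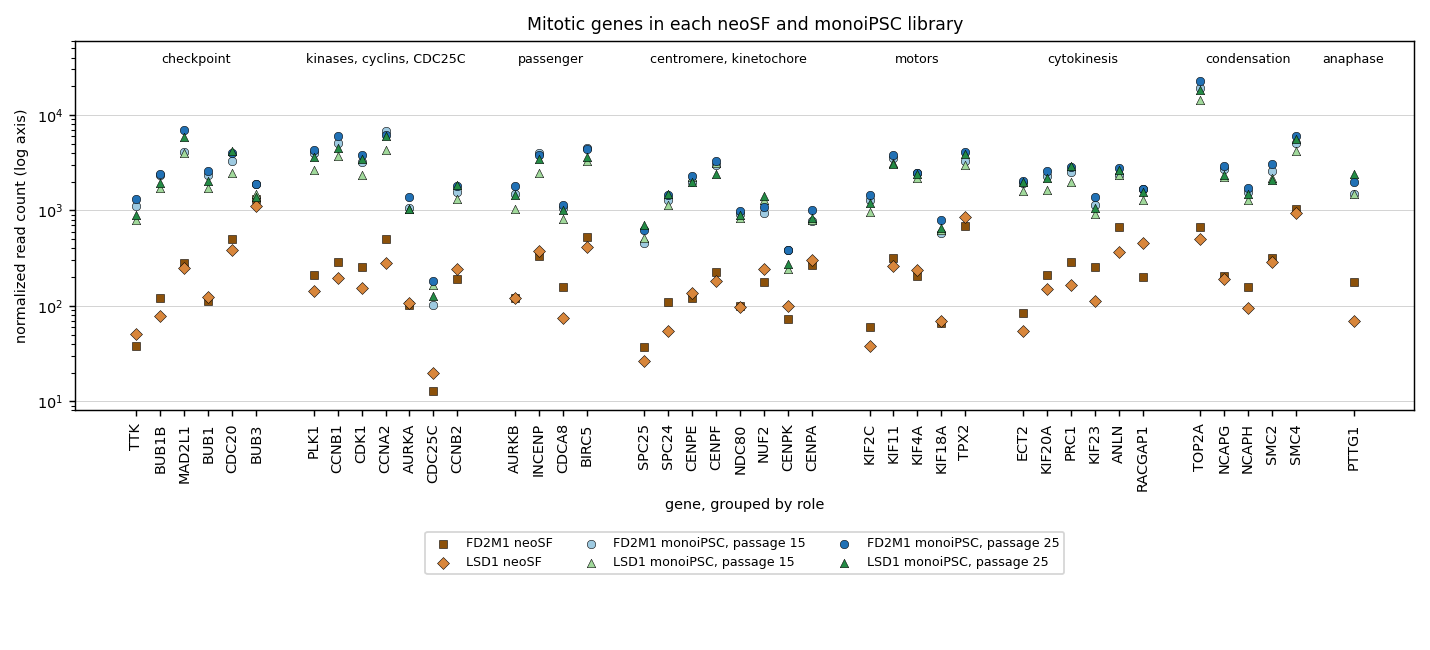
Normalized read count (log axis) of each of the 42 genes in the 2 neoSF libraries (brown and orange) and the 4 monoiPSC libraries (blue for FD2M1, green for LSD1, lighter at passage 15), grouped by role and ordered by log2 fold change within a role. In every gene the 4 monoiPSC points lie above both neoSF points, with the narrowest gap for BUB3 and the widest for TOP2A.

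Levels are given below as normalized read counts (NRC), the deposited log2 values put back on the linear scale, which are not corrected for gene length and so do not compare one gene with another. The monoiPSC libraries are given in the order FD2M1 passage 15, LSD1 passage 15, FD2M1 passage 25 and LSD1 passage 25. Log2 fold changes are those of the edgeR fit, monoiPSC over neoSF. Their standard error (SE) was worked out from the test, as the absolute log2 fold change over the square root of its F statistic.

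Among the checkpoint genes, 5 of 6 were DE genes, all higher in monoiPSCs, with a median log2 fold change of 4.35. TTK (gene ID 100023737, MonDom5 chromosome 2), the kinase that starts checkpoint signalling at unattached kinetochores, rose the most. Its NRC was 37.8 and 50.2 in the FD2M1 and LSD1 neoSFs and 1100.2, 789.9, 1305 and 905 in the monoiPSCs. The rise was 24.7-fold, a log2 fold change of 4.63 ± 0.32 (SE), with an adjusted p of 3.92e-05. BUB3 (gene ID 100019351, chromosome 1), the adaptor that carries BUB1 and BUB1B to the kinetochore, had NRCs of 1319.8 and 1101 in the FD2M1 and LSD1 neoSFs and 1894, 1479, 1878 and 1385 in the monoiPSCs. The groups did not overlap, but the LSD1 passage 25 line stood only slightly above the FD2M1 neoSFs, and the log2 fold change of 0.55 ± 0.19 (SE), with an adjusted p of 0.0375, left BUB3 below the 2-fold limit. With total count scaling BUB3 passed it, at 1.08 with an adjusted p of 0.00194, and in 6 of the 12 alternative settings its adjusted p was over 0.05. The other checkpoint genes rose 8-fold or more. BUB1 and BUB1B, the checkpoint kinase and the mitotic checkpoint complex subunit that bind BUB3, rose by 4.30 ± 0.25 and 4.51 ± 0.29 on the log2 scale. MAD2L1, the subunit that locks onto CDC20 to inhibit it, rose by 4.40 ± 0.33. CDC20, the activator of the anaphase-promoting complex that the checkpoint inhibits, rose by 3.07 ± 0.28.

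All 7 mitotic kinases, cyclins and the CDC25C phosphatase were DE genes, with a median log2 fold change of 4.00. PLK1 (gene ID 100027403, chromosome 6), the polo-like kinase of centrosome maturation and mitotic entry, was the highest of them. It measured 211 and 144 in the FD2M1 and LSD1 neoSFs and 3976, 2629.7, 4247 and 3629 in the monoiPSCs. Its log2 fold change was 4.45 ± 0.30 (SE), with an adjusted p of 3.58e-05. CCNB2 (gene ID 100019727, chromosome 1), a B-type cyclin, changed least, with NRCs of 191 and 244 in the FD2M1 and LSD1 neoSFs and 1556, 1322, 1798 and 1852 in the monoiPSCs. The groups were well apart in both genes, and the log2 fold change of CCNB2 was 3.00 ± 0.23 (SE), with an adjusted p of 5.3e-05. The main B-type cyclin CCNB1 rose by 4.42 ± 0.30, and its partner CDK1 by 4.08 ± 0.32. CCNA2, the A-type cyclin of S phase and G2, rose by 4.00 ± 0.33, and AURKA, the Aurora kinase of the spindle poles, by 3.54 ± 0.22. CDC25C, the phosphatase that activates CDK1, was the least abundant in counts, with 7 and 13 reads in the neoSF libraries and 182 to 311 in the monoiPSC libraries. It passed the filter on low values only through the monoiPSCs, where it was high, so it adds little to the count of DE genes. Its log2 fold change was 3.14 ± 0.44, with an SE second only to that of PTTG1.

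The chromosomal passenger complex corrects wrong attachments at the centromere and later moves to the spindle midzone, and its 4 genes were DE genes with closely similar changes, from 3.18 to 3.67 on the log2 scale. AURKB (gene ID 100014142, chromosome 2), its kinase, measured 121 and 122 in the FD2M1 and LSD1 neoSFs and 1499, 1041, 1804 and 1464 in the monoiPSCs. The log2 fold change was 3.67 ± 0.28 (SE), with an adjusted p of 5.14e-05. BIRC5 (gene ID 100031079, chromosome 2), or survivin, measured 521 and 413 in the FD2M1 and LSD1 neoSFs and 4538, 3268, 4433 and 3642 in the monoiPSCs. Both genes were separated by cell type with no overlap, and BIRC5 had a log2 fold change of 3.18 ± 0.23 (SE), with an adjusted p of 4.06e-05. INCENP, the scaffold of the complex, rose by 3.36 ± 0.25. CDCA8, or borealin, rose by 3.22 ± 0.34, and its change was 3.86 without the FD2M1 neoSF library, the higher of both neoSF values.

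The 8 centromere and kinetochore genes were DE genes with a wide range of changes, from 1.69 to 4.26. SPC25 (gene ID 100024050, chromosome 4), a subunit of the NDC80 complex that links the kinetochore to microtubules, rose the most. Its NRC was 36.7 and 26.1 in the FD2M1 and LSD1 neoSFs and 454, 512, 629 and 697 in the monoiPSCs. The log2 fold change was 4.26 ± 0.32 (SE), with an adjusted p of 5.12e-05. CENPA (gene ID 100030899, chromosome 1), the histone H3 variant that marks the centromere, rose the least, with NRCs of 265 and 299 in the FD2M1 and LSD1 neoSFs and 778, 786, 1020.0 and 842 in the monoiPSCs. The groups were apart by more than their spread, and the log2 fold change was 1.69 ± 0.19 (SE), with an adjusted p of 0.000295. The other subunits of the NDC80 complex had log2 fold changes of 2.59 ± 0.26 (NUF2), 3.29 ± 0.19 (NDC80) and 4.15 ± 0.33 (SPC24), and differences between subunits were not tested. SPC24 reached 4.74 without the FD2M1 neoSF library. CENPE, the kinesin that moves chromosomes to the spindle equator, rose by 4.13 ± 0.18 and had the lowest adjusted p of the list. CENPF, a large protein of the outer kinetochore, rose by 3.95 ± 0.22. CENPK, of the constitutive centromere complex, stood beside CENPA at the low end, with 1.98 ± 0.33.

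All 5 kinesin motors and spindle factors were DE genes, with a median log2 fold change of 3.53. KIF2C (gene ID 100014033, chromosome 2), a kinesin that takes microtubules apart at the centromere, measured 60.0 and 37.6 in the FD2M1 and LSD1 neoSFs and 1282, 967, 1463 and 1198 in the monoiPSCs. The rise was 26.8-fold, a log2 fold change of 4.75 ± 0.30 (SE), with an adjusted p of 3.01e-05. TPX2 (gene ID 100010953, chromosome 1), the activator of AURKA on spindle microtubules, measured 682 and 846 in the FD2M1 and LSD1 neoSFs and 3272, 2962, 4073 and 3884 in the monoiPSCs. It had the smallest change of these genes, 2.31 ± 0.21 (SE), with an adjusted p of 0.000103, and its groups did not overlap. KIF11, the motor that pushes the spindle poles apart, rose by 3.64 ± 0.20. KIF4A, a chromokinesin and the 1 gene of the list on the X chromosome, rose by 3.53 ± 0.17, and it was also the most even gene over the monoiPSC libraries, with a coefficient of variation of 5.29%. KIF18A, which damps chromosome movements, rose by 3.39 ± 0.24.

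In cytokinesis, 6 of 6 genes were DE genes, with a median log2 fold change of 3.17. ECT2 (gene ID 100009877, chromosome 7), the exchange factor that activates RHOA at the cleavage site, rose 29.1-fold. Its NRC was 83.2 and 54.9 in the FD2M1 and LSD1 neoSFs and 1944, 1580.3, 2046 and 1978 in the monoiPSCs. The log2 fold change was 4.86 ± 0.26 (SE), with an adjusted p of 1.6e-05. RACGAP1 (gene ID 100022945, chromosome 8), the centralspindlin subunit that recruits ECT2, rose the least, with NRCs of 201 and 457 in the FD2M1 and LSD1 neoSFs and 1669.6, 1286, 1659 and 1578 in the monoiPSCs. The neoSF values of RACGAP1 lay far apart, and its log2 fold change of 2.32 ± 0.34 (SE), with an adjusted p of 0.000935, became 3.06 without the LSD1 neoSF library. KIF23, the motor subunit of centralspindlin, was the reverse, with 256 and 113 in the FD2M1 and LSD1 neoSFs, and its log2 fold change of 2.73 ± 0.36 became 3.43 without the FD2M1 neoSF library. KIF20A, which brings the passenger complex to the midzone, rose by 3.69 ± 0.27, and PRC1, which bundles the midzone microtubules, by 3.61 ± 0.30. ANLN, or anillin, the scaffold of the contractile ring, rose by 2.40 ± 0.27.

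The 5 genes of chromosome condensation and topology were DE genes, and their median log2 fold change was 3.69. TOP2A (gene ID 100016027, chromosome 2), the topoisomerase that untangles sister chromatids, had the largest change of the whole list. Its NRC was 664 and 505 in the FD2M1 and LSD1 neoSFs and 18969, 14509, 22505 and 18288 in the monoiPSCs. The rise was 33.9-fold, a log2 fold change of 5.08 ± 0.29 (SE), with an adjusted p of 2.06e-05. No other gene of the list changed by over 32-fold. SMC4 (gene ID 100016945, chromosome 7), a core ATPase of condensin, measured 1026 and 940.1 in the FD2M1 and LSD1 neoSFs and 5034, 4179.6, 6027 and 5547 in the monoiPSCs. The change in SMC4 was the smallest of the role, 2.50 ± 0.20 (SE), with an adjusted p of 6.79e-05. Its partner SMC2 rose by 3.12 ± 0.22, while NCAPG and NCAPH, subunits of condensin I alone, rose by 3.79 ± 0.20 and 3.69 ± 0.27.

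PTTG1 (gene ID 100030438, chromosome 1), or securin, which keeps separase inactive until anaphase, was the one anaphase gene measured. Its NRC was 179.7 and 68.9 in the FD2M1 and LSD1 neoSFs and 1482, 1473, 1996 and 2397 in the monoiPSCs. The cell types did not overlap, but the neoSF libraries differed more than for any other gene of the list, by -1.38 on the log2 scale (LSD1 over FD2M1). The log2 fold change was 4.00 ± 0.45 (SE), with an adjusted p of 0.000281, and it was 4.85 without the FD2M1 neoSF library.

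**Figure D2:**
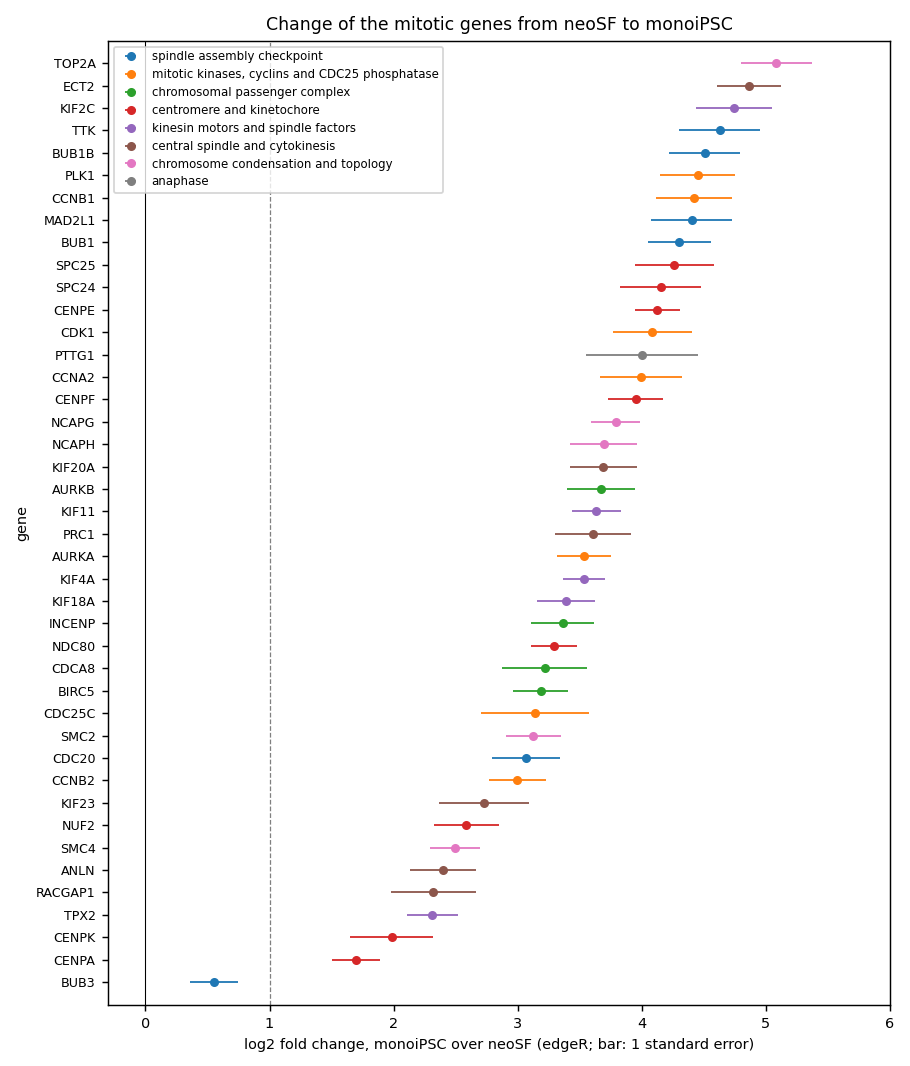
Log2 fold change (monoiPSC over neoSF, edgeR) of the 42 genes, ordered by size and coloured by role, with bars of 1 standard error; the dashed line marks a 2-fold change. The points run from BUB3 at 0.55, left of the dashed line, to TOP2A at 5.08, and roles are mixed along the order.

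Genes of one complex or one role can be set against each other within a library, where scaling between libraries has no effect. Since NRCs are not corrected for length, only the shift of such a ratio between libraries has a meaning. The 12 pairs below were chosen after their values were seen and have no test. In each pair without overlap the gene named first had the larger log2 fold change, so the direction of the shift follows from that order. How often other pairs of genes shift without overlap was not computed. The log2 ratio of TOP2A to SMC4 was -0.63 and -0.90 in the neoSFs and 1.72 to 1.91 in the monoiPSCs. That of ECT2 to RACGAP1 was -1.27 and -3.06 in the neoSFs and lay within 0.22 to 0.33 in the monoiPSCs. For SPC25 to NUF2 the ratio was -2.26 and -3.23 in neoSFs against -1.33 to -0.80 in monoiPSCs. These ratios were thus higher in every monoiPSC library than in either neoSF library. The ratio of CCNB1 to CCNB2 moved in the same way, from 0.61 and -0.33 to between 1.28 and 1.76. The widest shift was that of BUB1 to BUB3, from -3.54 and -3.17 to between 0.21 and 0.54. Pairs that overlapped were AURKA to AURKB, at -0.26 and -0.20 against -0.49 to -0.02, and KIF23 to RACGAP1, at 0.35 and -2.02 against -0.56 to -0.26. AURKA and AURKB thus rose nearly in step, whereas the 2 subunits of centralspindlin stood in different proportions in the 2 neoSF cultures and in a similar proportion in the 4 monoiPSC libraries.

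**Figure D3:**
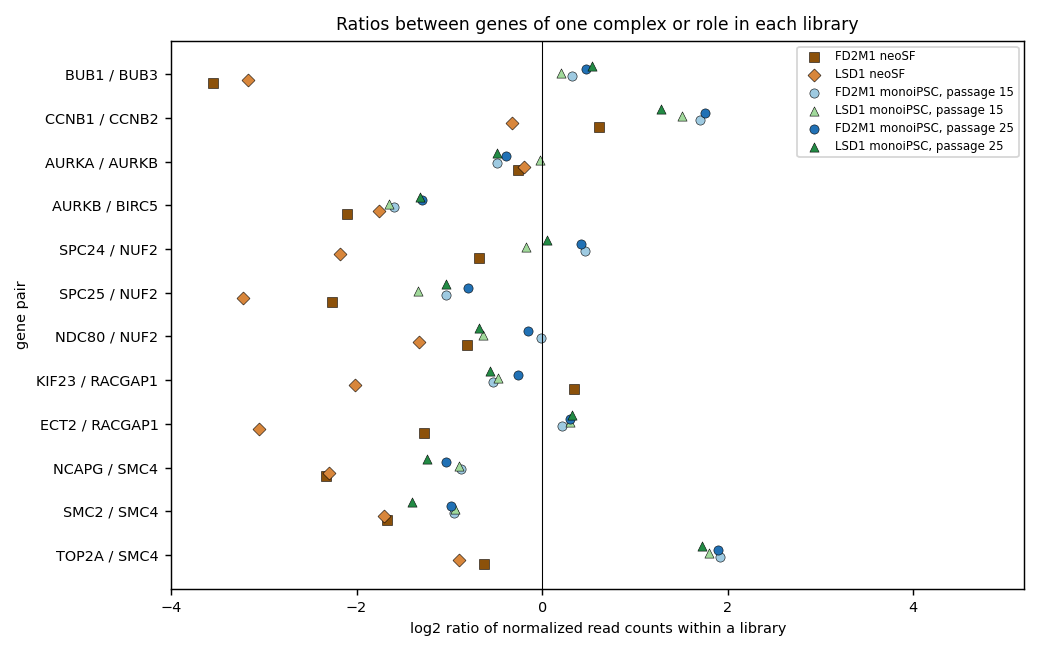
Log2 ratio of the NRCs of 2 genes of one complex or role within each library (horizontal axis) for 12 gene pairs (rows), with neoSF libraries in brown and orange and monoiPSC libraries in blue and green. The points of the monoiPSC libraries lie to the right of both neoSF points in all pairs but AURKA / AURKB and KIF23 / RACGAP1, where they overlap. In the pairs without overlap the gene named first had the larger log2 fold change.

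The rest of the mitotic machinery was looked at with 8 further lists of 147 genes, of which 138 had a row and were tested. Of the 138 genes, 78 were DE genes higher in monoiPSCs, 4 were lower and 56 were not DE genes, and the median log2 fold change was 1.30. Over all 13072 genes tested, 24.3% rose and 21.6% fell, with a median of 0.08, and the counts of each list below are to be read against these shares. The highest medians were those of other spindle, kinase and kinetochore genes. Of other kinetochore and centromere genes, 24 of 29 rose, with a median of 2.15, from ZW10, a dynein recruiter at 0.03 ± 0.18, to HJURP, the chaperone of CENPA, at 4.08 ± 0.32. The NRC of HJURP was 65.1 and 77.5 in the FD2M1 and LSD1 neoSFs and 830.2, 954, 1272 and 1447 in the monoiPSCs. Of other mitotic kinesins and spindle proteins, 17 of 21 rose, with a median of 2.89, and CKAP2, a microtubule-associated protein, was the highest at 5.07 ± 0.38, while the cargo motor KIF5B stood at -0.72 ± 0.17 and was not a DE gene. Of other mitotic kinases, phosphatases and cyclins, 10 of 15 rose, with a median of 2.74, from -0.54 ± 0.14 for ENSA, a phosphatase inhibitor that was not a DE gene, to 4.86 ± 0.26 for CCNB3, another B-type cyclin.

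Lower medians were found in the lists of anaphase regulators, cohesin and centrosomes. Of the anaphase-promoting complex (APC/C) and its regulators, 4 of 16 rose, a share near the 24.3% of all genes tested, and the median was 0.49. The genes that rose were the ubiquitin-conjugating enzyme UBE2C, at 4.27 ± 0.23, the inhibitor FBXO5 and the core subunits ANAPC4 and ANAPC10, while ANAPC13 was the lowest at -0.82 ± 0.17 and was not a DE gene. Of cohesin and other condensin genes, 8 of 15 rose, with a median of 1.04, from -0.47 ± 0.18 for the cohesin ATPase SMC1A, not a DE gene, to 3.89 ± 0.24 for ESCO2, the acetyltransferase of cohesin. Of centrosome and centriole genes, 7 of 14 rose, with a median of 1.07, with SASS6, of the centriole cartwheel, at 2.78 ± 0.44 and CEP97, not a DE gene, at -0.54 ± 0.26. With total count scaling, 8 APC/C genes and 11 centrosome genes rose, beside 4786 of all 13072 genes tested. These counts are not to be read against the 24.3% of the main fit.

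The further cytokinesis genes, several of which also act in cells that are not dividing, had a median log2 fold change of -0.54. Of these 12 genes, 1 rose and 3 fell, and 21.6% of all genes tested fell, so that the share that fell was near that of all genes. CIT, or citron kinase, which acts at the midbody, was the one that rose, at 4.57 ± 0.26. MYH9, a heavy chain of non-muscle myosin, measured 56833 and 95189 in the FD2M1 and LSD1 neoSFs and 6137, 8346, 7167 and 9248 in the monoiPSCs, a log2 fold change of -3.21 ± 0.26 (SE), with an adjusted p of 6.79e-05. The kinase ROCK2, at -1.38 ± 0.17, and the motor KIF3B, at -1.07 ± 0.16, were the others that fell. With total count scaling, 2 genes of this list rose and 1 fell, while 4786 rose and 1931 fell of all 13072 genes tested.

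Of 16 transcription factors and cofactors that drive or repress the G2 and mitosis genes, 7 rose and 1 fell, with a median of 0.52. FOXM1, an activator of many of the 42 genes, was the highest, with NRCs of 91.6 and 63.3 in the FD2M1 and LSD1 neoSFs and 573, 503, 702 and 610.2 in the monoiPSCs. Its log2 fold change was 3.05 ± 0.27 (SE), with an adjusted p of 9.91e-05. The others that rose were MYBL1, MYBL2, LIN9, TFDP1, RBBP4 and NFYB. RBL2, the pocket protein p130 of the repressing complex of resting cells, fell, with a log2 fold change of -1.01 ± 0.16 (SE), with an adjusted p of 0.00137, close to the 2-fold limit, and it was not a DE gene without the FD2M1 neoSF library, without the FD2M1 line at passage 15 or with total count scaling.

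**Figure D4:**
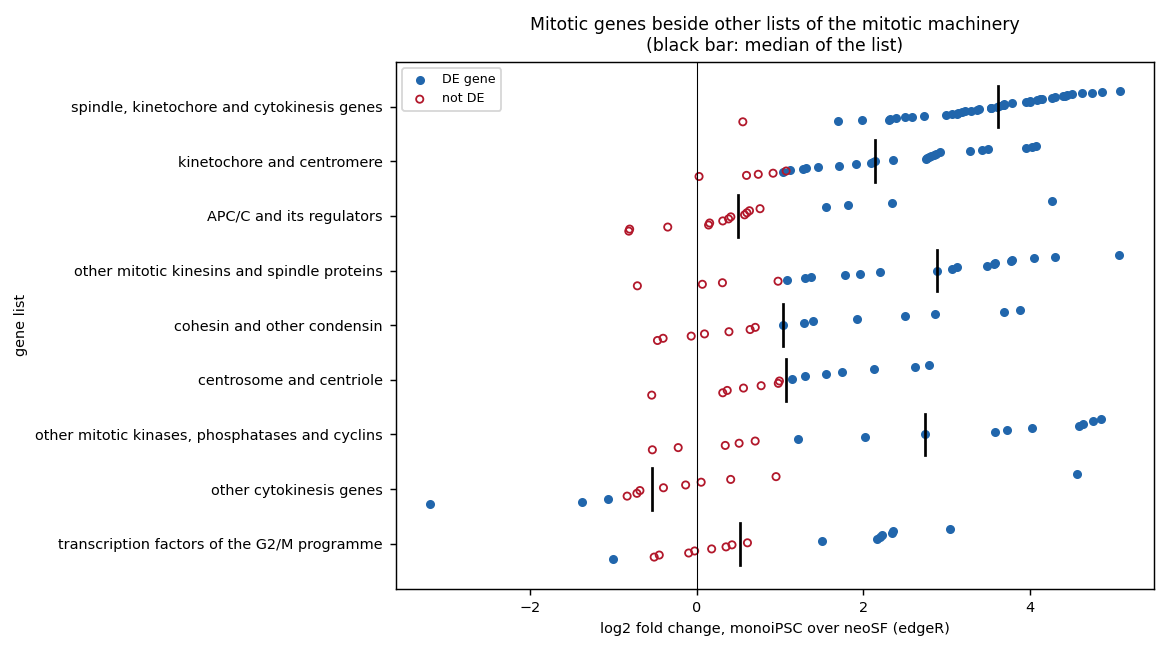
Log2 fold change (monoiPSC over neoSF, edgeR) of the 42 genes (top row) and of 138 genes in 8 other lists of the mitotic machinery, with DE genes as filled blue points, other genes as open red points and the median of each list as a black bar. The median is 3.62 in the top row, 2.89 for other kinesins and spindle proteins, and -0.54 for other cytokinesis genes.

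Within the monoiPSCs no mitotic gene changed by 2-fold between passages or strains. Their median coefficient of variation over the 4 libraries was 16.0%, from 5.29% for KIF4A to 27.8% for MAD2L1, against 17.2% over all 12252 genes expressed in these libraries and 15.5% over the 9883 of them within the range of levels of the 42 genes. None of the 42 genes was a DE gene between passages, and edgeR called 0 of the 12252 genes (0%) at this threshold, with 1 residual degree of freedom. At an unadjusted p under 0.05, 5 of the 42 genes differed, against 9.35% of all genes, and DESeq2 called 90 genes higher and 29 lower, none of them among the 42. The log2 difference of passage 25 over passage 15 was above 0 in 39 genes and below it in BUB3, CENPE and CENPF, against 48.5% of all genes above 0, with a median of 0.20. MAD2L1 had the largest difference, 0.65, with an adjusted p of 0.313 (unadjusted p = 0.00477, edgeR), from 4114 and 4017 at passage 15 to 7040.4 and 5888 at passage 25 in the FD2M1 and LSD1 lines. PTTG1 followed with 0.55, CDC20 with 0.49, SPC25 with 0.44 and CDK1 with 0.40.

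Between strains, 38 of the 42 genes were lower in the LSD1 than in the FD2M1 monoiPSCs, with a median log2 difference of -0.23, while 51.1% of all genes were higher. Each strain had 1 monoiPSC line, so strain and line cannot be told apart. Again none of the 42 was a DE gene, nor was any of the 12252 genes (0%) in edgeR, and DESeq2 called 120 genes higher and 71 lower, none of them among the 42. At an unadjusted p under 0.05, 12 of the 42 genes differed, against 14.2% of all genes, and the lowest adjusted p was 0.271, for TTK. CENPK had the lowest difference, -0.58, and NUF2 the highest, 0.43, being one of 4 genes above 0 with SPC25, PTTG1 and CDC25C. The genes tended to be high or low in the same library. FD2M1 at passage 25 was the highest library for 30 of the 42 genes, against 17.1% of all expressed genes, and LSD1 at passage 15 was the lowest for 32, against 23.0%. The median deviation from the mean of a gene over the 4 libraries was 0.21 and -0.27 on the log2 scale in these libraries, and 0.04 and 0.00 in FD2M1 at passage 15 and LSD1 at passage 25. Each of these medians rests on 1 library. The LSD1 line at passage 25 had the highest muscle markers. It was the highest library for 7 of the 42 genes and the lowest for 5. Without it, 41 of the 42 were still DE genes between cell types, with a median log2 fold change of 3.60. This does not test the part of the muscle markers, since MYOG and ACTA1 were higher than in neoSFs in every monoiPSC library.

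**Figure D5:**
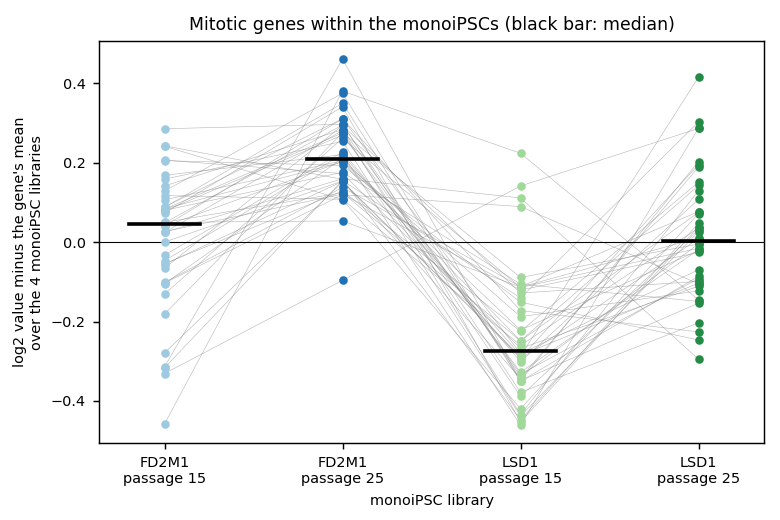
Log2 value of each of the 42 genes in the 4 monoiPSC libraries after subtracting its own mean over these libraries, with 1 thin line per gene and the median of each library as a black bar. Most points of FD2M1 at passage 25 lie above 0 (median 0.21) and most of LSD1 at passage 15 below it (median -0.27).

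The neoSF cultures of the 2 strains also differed in these genes, but with 1 library each this has no test. In LSD1, 27 genes were lower and 15 higher than in FD2M1, against 51.7% of all genes lower, with a median log2 difference of -0.28. PTTG1 was the lowest at -1.38, KIF23 followed at -1.19, and CDCA8 and SPC24 stood at -1.08 and -1.03. RACGAP1 was the highest, at 1.19. The change from neoSFs to monoiPSCs had a median of 3.63 on the log2 scale in FD2M1 and of 3.66 in LSD1. The test of the difference between strains, an interaction of cell type and strain in edgeR, called 11 of 13072 genes (0.0841%) and none of the 42, and DESeq2 called 204 genes above 0 and 102 below it, again without any of the 42. At an unadjusted p under 0.05 it gave PTTG1, with a difference of 1.54 (LSD1 over FD2M1), RACGAP1, with -1.42, and ANLN, with 0.82, against 9.13% of all genes, and the lowest adjusted p was 0.263. CENPK differed by -1.08. PTTG1 and RACGAP1 were also the genes with the lowest and the highest value of LSD1 over FD2M1 neoSFs, so that these differences rest on 1 neoSF library per strain. They also rest on 1 monoiPSC line per strain.

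The 42 genes lay on chromosomes 1 to 8 and X of MonDom5, the opossum assembly that the authors used. Chromosome 1 held 15 of them, and 23.6% of all genes tested. The median log2 fold change of the genes on chromosomes 1, 2 and 5 was 3.61, 3.95 and 3.90, against 3.62 over the list.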

How the data were processed

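RNA of 2 neoSF and 4 monoiPSC libraries was sequenced. The labels give a TruSeq kit for all 6 libraries, while the study's methods name it for the neoSF libraries only, so that library preparation may also differ between the cell types. Alignment to MonDom5 and counting on RefSeq genes were done by the authors in StrandNGS. What they deposited as raw counts is fractional in 87.1% of its nonzero values, and it was therefore handled as estimated counts and rounded. The NRC came from the second deposited table, of DESeq-normalized log2 values. How read pairs and strand were treated in counting is not given in the sources used here.

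A gene was tested if its NRC reached 20 in each library of at least one cell type, using edgeR 4.0.16 (glmQLFit and glmQLFTest, TMM scaling, R 4.3.3), with Benjamini-Hochberg adjustment over all genes tested. The fit between cell types used all 6 libraries and no covariate. Within monoiPSCs, strain or passage was the covariate. DESeq2 1.42.0, limma 3.58.1 on the log2 values, RLE and total count scaling, no filter, the strain block and leaving out each library were alternatives. On simulated counts for the comparison of cell types (13072 genes, 200 changed 4-fold), edgeR recovered 199 and called 1 unchanged gene. Whether those counts spread as the real libraries do was not tested. No recovery is given here for the fits of passage, strain or the strain difference. At this depth, 3 counts equal an NRC of 5.85 and 4.75 in the neoSFs and 1.55 to 1.88 in the monoiPSCs, and no gene of the list was at or under 3 counts.

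The gene list, the roles and the other lists were chosen with earlier results of these data known. Full statistics are given for the gene with the highest and the lowest log2 fold change of each role and for any gene that was not a DE gene, and of the other lists the highest and lowest gene are named. Genes beyond this were named after their values were seen. KNL1 was matched as CASC5, and SEPT7 and SEPT9 by gene number, since their symbols had been turned into dates. Each monoiPSC line was made from the neoSFs of its own strain, so strain pairs the libraries by origin. The correlation of deviations from the group means was -0.02 to 0.08 for libraries of the same strain.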

Additional observations from a re-analysis of the deposited data

Results flagged for a closer look

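AURKA stood out in 1 library. Its NRC was 1373 in the FD2M1 line at passage 25, apart from 1025 to 1070 in the other 3 monoiPSC libraries. On the log2 scale, the gap to the nearest library was 0.852 of the whole range, above Dixon's critical value for 4 samples at the 95% level. Among groups of 4 independent samples, chance alone flags about 1 in 20, and all 42 genes were looked at in this way. The 4 libraries are passages of 2 lines and so are not independent. FD2M1 at passage 25 was also the highest library for 30 of the 42 genes, so AURKA was not alone in being high there.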

How the results depend on the processing

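Under the 12 alternatives to the comparison of cell types, 41 of the 42 genes were DE genes in every one, and of 504 gene values 1 changed its side of the threshold, BUB3 with total count scaling. The highest adjusted p of any gene other than BUB3 was 0.0118 and the lowest log2 fold change 1.60, while BUB3 ran from 0.45 to 1.08. Total count scaling moved the median of the 42 genes from 3.62 to 4.14 and the number of genes of the other lists that fell from 4 to 1, beside a shift of the median of all genes from 0.08 to 0.61. The number of all genes tested that fell went from 2824 to 1931. Leaving out 1 library at a time gave medians of 3.50 to 3.82. With strain as a replicate block, in which the lines are paired with the neoSFs of their strain, 41 genes were DE genes with a median of 3.64, and the block changed no other call of the 42. In the 8 alternatives each for passage and strain and the 7 for the strain difference, none of the 42 was called. The neoSF libraries are shallower, CDC25C had 7 and 13 counts there, and 2 neoSF libraries limit every error given.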
